A study of Mus musculus with 5 samples.

Results

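A pair of sorted neutrophil populations is set against each other here, the cells that carried hashtag MHTO3 in the AT3-gcsf library and the cells that carried hashtag MHTO10 in the AT3 library. The AT3-gcsf MHTO3 population held 2853 cells and the AT3 MHTO10 population 2498, together 5351 of the 24456 cells that the same rule kept in all 9 hashtagged populations and of 26406 called barcodes. A cell belonged to a population when 1 named hashtag took at least 80% of its named hashtag counts with at least 20 counts, when it had at least 200 genes and under 10% mitochondrial counts, and when S100a8 and S100a9 together made up at least 2% of its unique molecular identifiers (UMIs, counted transcripts). The cells were thus selected on their hashtag counts and on measured S100a8 and S100a9 levels, and the pair itself was chosen by levels already seen in these libraries, so S100a8 and S100a9 are given as description only. The S100 minimum left out 14 AT3-gcsf MHTO3 and 44 AT3 MHTO10 cells. Between 2% and 3%, just inside it, lay 16 AT3-gcsf MHTO3 and 72 AT3 MHTO10 cells, and between 1% and 2%, just outside it, 11 and 42 cells of the same populations.

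The study sorted neutrophils from bone marrow (BM), peripheral blood (PB) and lung of female wild-type C57BL/6J mice and profiled their polyadenylated RNA cell by cell. The AT3-gcsf mice bore AT3-gcsf tumours, by name a G-CSF form of AT3, the AT3 mice bore tumours of AT3, a mouse mammary carcinoma line, and naive mice bore none. Tissues were marked with hashtag antibodies and about 24000 cells, 8000 per hashtag, were loaded per 10x lane, but the labels tie no hashtag to a tissue, and none is assigned. Each condition had 1 library in 1 lane. The MHTO3 cells of AT3-gcsf and the MHTO10 cells of AT3 may come from different tissues. Condition, lane and tissue therefore cannot be told apart in any ratio of this pair, there is no spread between mice, and no p-value is given. The labels give no number of mice, age or tumour stage.

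Neutrophils arise in the marrow, fill their granules in a fixed order while they mature, and enter the blood when the retention receptor CXCR4 yields to CXCR2. G-CSF, the product of Csf3, binds the receptor encoded by Csf3r and through STAT3 drives their production and release. In tumour-bearing mice, neutrophils can accumulate and take up inflammatory, interferon-driven or suppressive programmes.

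The populations were told apart by the 15-base hashtag sequences that follow, in which no bases are capitalised.
MHTO3: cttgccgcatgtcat
MHTO10: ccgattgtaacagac
The median cell carried 404 counts of MHTO3 in the AT3-gcsf library and 176 counts of MHTO10 in the AT3 library, which made up a median of 98.4% of the named hashtag counts in AT3-gcsf MHTO3 and 97.9% in AT3 MHTO10. In both populations all 14 neutrophil markers reached 20 counts per 1000000 (CPM, a gene's count in the summed cells of a population, scaled to that total). S100a8 and S100a9, which chose the cells, are among the 14, so their levels were fixed in advance. AT3-gcsf MHTO3 cells were deeper, with a median of 6523 UMIs and 1535 genes, against 3283.5 UMIs and 1107.5 genes in AT3 MHTO10 cells, and they held 21706581 UMIs in all, against 10024086 in AT3 MHTO10. Thinned to 2000 UMIs each, the order of gene numbers turned round, with 688.5 genes in AT3-gcsf MHTO3 and 772 genes in AT3 MHTO10 cells (2802 and 2317 cells deep enough). Of the called barcodes, 20 occurred in both the AT3-gcsf and the AT3 library. Of the markers of other cell types, erythroid markers summed to 0.184 CPM in AT3-gcsf MHTO3 and 6.78 CPM in AT3 MHTO10, T and NK cell markers to 1.34 CPM and 4.59 CPM, and B cell markers to 9.21 CPM and 40.5 CPM in the same order, with Ighm at 8.57 CPM in AT3-gcsf MHTO3 and 40.2 CPM in AT3 MHTO10 and Ms4a1 at 0. Lung epithelial markers summed to 30.9 CPM in AT3-gcsf MHTO3 and 142 CPM in AT3 MHTO10, led by the club cell product Scgb1a1 at 26.9 CPM and 117 CPM. Monocyte and macrophage markers summed to 816 CPM in AT3-gcsf MHTO3 and 617 CPM in AT3 MHTO10, with Chil3 and Ly6c2 in front and C1qa, C1qb, C1qc and Mrc1 at or near 0. Scgb1a1 and Ighm were themselves among the genes at least 2-fold lower in AT3-gcsf MHTO3. Leaving out cells with at least 3 UMIs of another type's markers gave 81 higher and 285 lower genes. Markers at 20 CPM or more in either population, Scgb1a1, Ighm, Chil3 and Ly6c2 among them, were not used to leave out cells. These counts therefore do not bear on cells or free RNA that carry those markers.

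In all, 3801 genes reached 20 CPM in the higher of the 2 populations. Of these, 80 (2.1%) were higher by 2-fold or more in AT3-gcsf MHTO3 than in AT3 MHTO10 and 285 (7.5%) lower, 9.6% in either direction. These shares are the background for every list count given below. The log2 ratio was taken with 5 CPM added to each level and called from 1 upwards or from -1 downwards. It lay above 0 for 31.6% of genes. Of these calls, 6 higher and 14 lower genes carry predicted or mitochondrially encoded symbols and are counted only. At 4-fold the balance turned, with 17 genes higher and 10 lower. The median log2 ratio of all genes was -0.22. Trimmed-mean (TMM) scaling moved it by 0.23 and gave 138 higher and 136 lower genes, and totals without the 20 most abundant genes moved it by 0.13 and gave 160 higher and 243 lower genes. Among the 80 higher genes, 70 (87.5%) lay higher in all 3 AT3-gcsf populations than in all 3 AT3 populations, where 12.4% of all genes compared did. Among the 285 lower genes, 121 (42.5%) lay lower in all 3 AT3-gcsf populations, where 9.92% of all genes did. The 3 populations of each library came through 1 lane and do not replicate a condition, and the calls themselves used 1 population of each library.

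**Figure D1:**
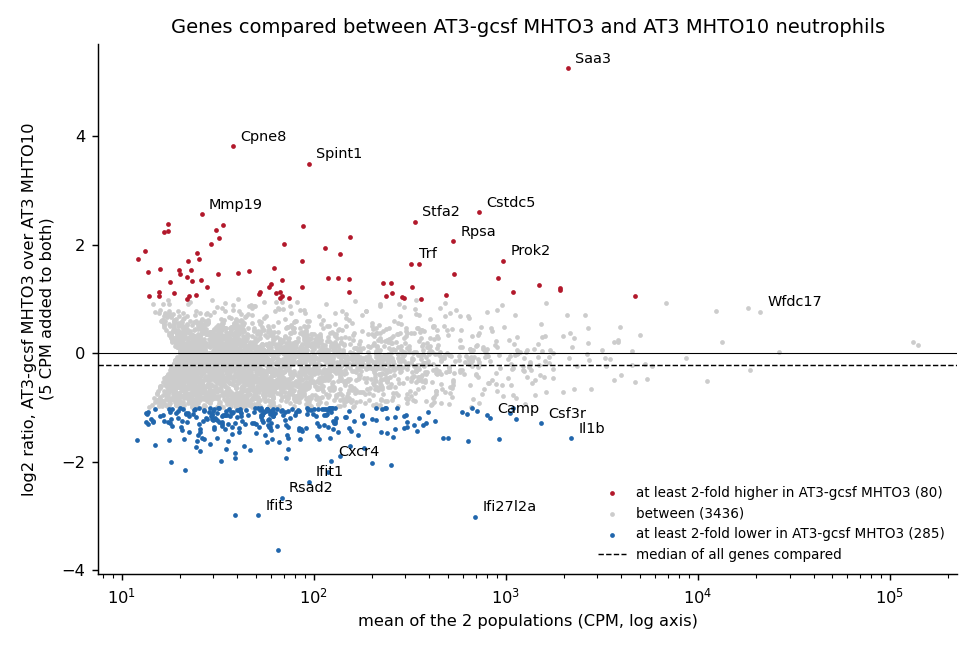
Log2 ratio of AT3-gcsf MHTO3 over AT3 MHTO10 (5 CPM added) against the mean of both levels (CPM, log axis), with 1 point per gene compared. Saa3 stands highest at a log2 ratio of 5.26, interferon-induced genes such as Ifit3 (-2.98) stand lowest among the labelled genes, and most points lie below 0 around the median of -0.22.

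The highest ratio belonged to Saa3, an acute-phase apolipoprotein that inflamed tissues and myeloid cells secrete (chromosome 7, 46711998 to 46715700, minus strand, GRCm38). It was at 4113 CPM in AT3-gcsf MHTO3 (95% Poisson interval 4086 to 4139.9, counting error only), against 103 CPM in AT3 MHTO10 (96.6 to 109), a log2 ratio of 5.26. AT3-gcsf MHTO4 and MHTO5 were at 2538 and 4904 CPM, AT3 MHTO7 and MHTO8 at 6.61 and 146 CPM, and naive MHTO3, MHTO4 and MHTO5 at 8.91, 0.0780 and 4.80 CPM. The conditions did not overlap. In cells thinned to 2000 UMIs, 68.3% of AT3-gcsf MHTO3 cells had a Saa3 UMI (66.5 to 70.0, Clopper-Pearson), against 4.10% of AT3 MHTO10 cells (3.33 to 4.99), and 46.2% of AT3-gcsf MHTO3 and 1.42% of AT3 MHTO10 cells had at least 5. Unthinned, 83.2% of AT3-gcsf MHTO3 and 5.48% of AT3 MHTO10 cells had a Saa3 UMI. As a measure of free RNA, cells with lymphocyte markers in the same libraries had a Saa3 UMI in 16.7% of 18 cells in AT3-gcsf (3.58 to 41.4) and in 0 of 23 cells in AT3 (0 to 14.8), with at most 1 UMI a cell. These lymphocyte-marked cells had median depths of 33642 UMIs in AT3-gcsf and 5730 UMIs in AT3 before thinning and were defined after the data were seen. Both medians were above those of AT3-gcsf MHTO3 (6523 UMIs) and AT3 MHTO10 (3283.5 UMIs), so thinning kept a smaller part of their counts. Their shares may therefore understate free RNA. Across all alternative settings the Saa3 ratio ran over 5.07 to 5.70.

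Several of the genes that followed were low in AT3 cells. Cpne8, a calcium-dependent membrane-binding copine, was at 75.4 CPM in AT3-gcsf MHTO3, against 0.698 CPM in AT3 MHTO10 (log2 ratio 3.82). It lay at 84.8 and 83.0 CPM in AT3-gcsf MHTO4 and MHTO5 and at 0.190 and 2.47 CPM in AT3 MHTO7 and MHTO8. Spint1, a membrane Kunitz-type inhibitor of serine proteases, was at 178 CPM in AT3-gcsf MHTO3, against 11.3 CPM in AT3 MHTO10 (log2 ratio 3.49), with 119.9 and 157 CPM in the other AT3-gcsf and 1.62 and 12.1 CPM in the other AT3 populations. Neither gene overlapped between the conditions, and both were under 1 CPM in every naive population. Casp6, an executioner caspase, was at 150.0 CPM in AT3-gcsf MHTO3, against 25.6 CPM in AT3 MHTO10 (log2 ratio 2.34), with 155 and 161 CPM in the other AT3-gcsf and 9.70 and 26.4 CPM in the other AT3 populations. The matrix metalloprotease gene Mmp19 was at 48.1 CPM in AT3-gcsf MHTO3 and 3.99 CPM in AT3 MHTO10 (log2 ratio 2.56), but AT3-gcsf MHTO4 and MHTO5 lay far apart, the first close to the AT3 levels of 3.99, 0.333 and 2.05 CPM in MHTO10, MHTO7 and MHTO8. Another 4 of the 12 highest were low genes, the adaptor Lat2 (2.38), the stress-induced Nupr1 (2.26), the cation channel Trpm4 (2.25) and the membrane scaffold stomatin, Stom (2.23), all under 55 CPM. Lat2 and Stom were called over all cells but not among cells of 3000 to 8000 UMIs, where Lat2 stood at 0.84 and Stom at 1.11 but under 20 CPM.

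**Figure D2:**
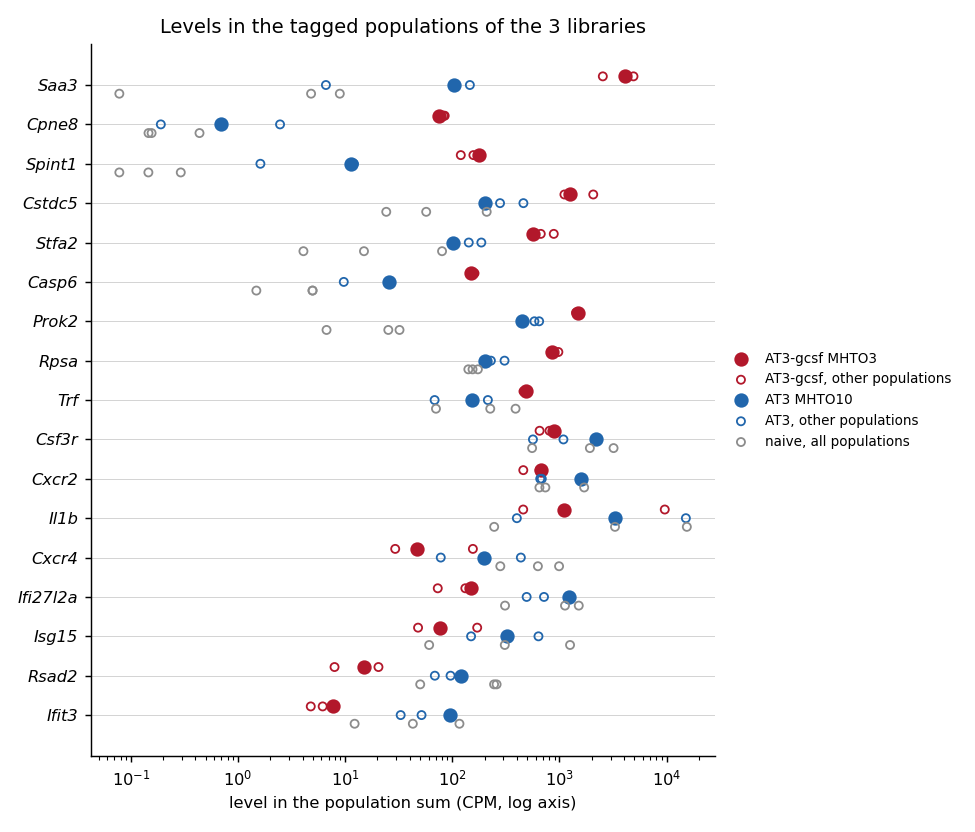
Levels of 17 genes (rows) in the summed cells of every hashtagged population, in CPM on a log axis, with filled points for AT3-gcsf MHTO3 and AT3 MHTO10 and open points for the other populations. For Saa3 to Trf all AT3-gcsf points lie to the right of all AT3 points, whereas Csf3r, Cxcr2, Il1b, Cxcr4 and Isg15 overlap between the conditions.

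Stefins, intracellular inhibitors of cysteine cathepsins that mice carry as a cluster of near copies on chromosome 16, formed the list with the highest median. Of 9 stefin and cystatin genes compared, 5 were at least 2-fold higher and 0 lower, with a median of 1.47 (0.54 to 1.71 over the alternatives) beside -0.22 for all genes. Cstdc5 was at 1242 CPM in AT3-gcsf MHTO3, against 200.2 CPM in AT3 MHTO10 (log2 ratio 2.60), Stfa2 at 570.0 CPM in AT3-gcsf MHTO3, against 102 CPM in AT3 MHTO10 (log2 ratio 2.43), and Csta2 at 60.1 CPM in AT3-gcsf MHTO3, against 7.58 CPM in AT3 MHTO10 (log2 ratio 2.37). For all 3 genes every AT3-gcsf population lay above every AT3 population, with Stfa2 at 884 and 669 CPM in AT3-gcsf MHTO4 and MHTO5 and at 186 and 142 CPM in AT3 MHTO7 and MHTO8. Stfa3 (2.14) and Stfa1 (1.47) were also called. Stfa2l1, another abundant stefin, was level, at 1568 CPM in AT3-gcsf MHTO3 and 1519.7 CPM in AT3 MHTO10 (log2 ratio 0.05), and the cathepsin B inhibitor Cstb (0.54) and cystatin C, Cst3 (-0.37), were not called either. Of the 50-base stretches of their transcripts, 25.1% in Cstdc5, 22.5% in Stfa1, 20.4% in Csta2, 16.8% in Stfa2l1 and 14.7% in Stfa2 also occur in another member, so how reads were divided among them is uncertain. Cstdc5 was concentrated in few cells. In thinned cells 24.0% of AT3-gcsf MHTO3 and 7.73% of AT3 MHTO10 cells had a UMI, and the highest 10% of AT3-gcsf MHTO3 cells held 87.4% of the UMIs. Its level climbed with cell depth, over 210.5, 351, 807 and 1671 CPM in AT3-gcsf MHTO3 cells under 3000, of 3000 to 5000, of 5000 to 8000 and of at least 8000 UMIs. The ratio of Cstdc5 was 2.14, 1.12, 1.05 and 2.56 in these bands.

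Prok2 (Bv8), a secreted chemoattractant and angiogenic peptide, was at 1481 CPM in AT3-gcsf MHTO3, against 451 CPM in AT3 MHTO10 (log2 ratio 1.70), with 1511 and 1427 CPM in the other AT3-gcsf and 646 and 584 CPM in the other AT3 populations, without overlap. Its ratio was 0.92 among cells of 3000 to 8000 UMIs and no longer called. Wfdc17, a WAP-domain protein, took 26484 CPM in AT3-gcsf MHTO3, against 15571 CPM in AT3 MHTO10 (log2 ratio 0.77), and the membrane protein Ifitm1 23334 CPM in AT3-gcsf MHTO3 and 13059 CPM in AT3 MHTO10 (log2 ratio 0.84). Both lay higher in every AT3-gcsf than in every AT3 population, by less than 2-fold in this pair. The siderophore-binding Lcn2 (0.93) also stayed under 2-fold. Transferrin, Trf, which carries iron, was at 491 CPM in AT3-gcsf MHTO3, against 153 CPM in AT3 MHTO10 (log2 ratio 1.65), with 461 and 509 CPM in the other AT3-gcsf and 68.3 and 215 CPM in the other AT3 populations. Chil3, a secreted chitinase-like protein, was at 396 CPM in AT3-gcsf MHTO3 and 194 CPM in AT3 MHTO10 (log2 ratio 1.01) and overlapped between the conditions through AT3 MHTO7 (1243 CPM), and its call was lost with an S100 minimum of 10% and with none. In the acute-phase and secreted list 3 of 13 genes were higher, Saa3, Prok2 and Chil3, and 1 lower, the interleukin-1 receptor antagonist Il1rn, with a median of 0.34, where 2.1% of all genes were higher. Among 14 myeloid-suppressor associated genes 2 were higher, Prok2 and the inducible nitric oxide synthase Nos2, and 2 lower, the checkpoint ligand Cd274 (PD-L1) and the adhesion molecule Jaml (median -0.20). Nos2 was at 31.7 CPM in AT3-gcsf MHTO3 and 8.38 CPM in AT3 MHTO10 (log2 ratio 1.46) and Cd274 at 4.38 CPM in AT3-gcsf MHTO3 and 25.3 CPM in AT3 MHTO10 (log2 ratio -1.69). Neither was called at 3000 to 8000 UMIs, where Nos2 stood at 0.71 and Cd274 at -1.08 but under 20 CPM. The 4 Ifitm genes compared had none called (median 0.37), and of the 3 other S100 genes compared none was called (median 0.59). S100a8 and S100a9, which chose the cells, took a median of 26.0% of a cell's UMIs in AT3-gcsf MHTO3 and 20.4% in AT3 MHTO10.

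**Figure D3:**
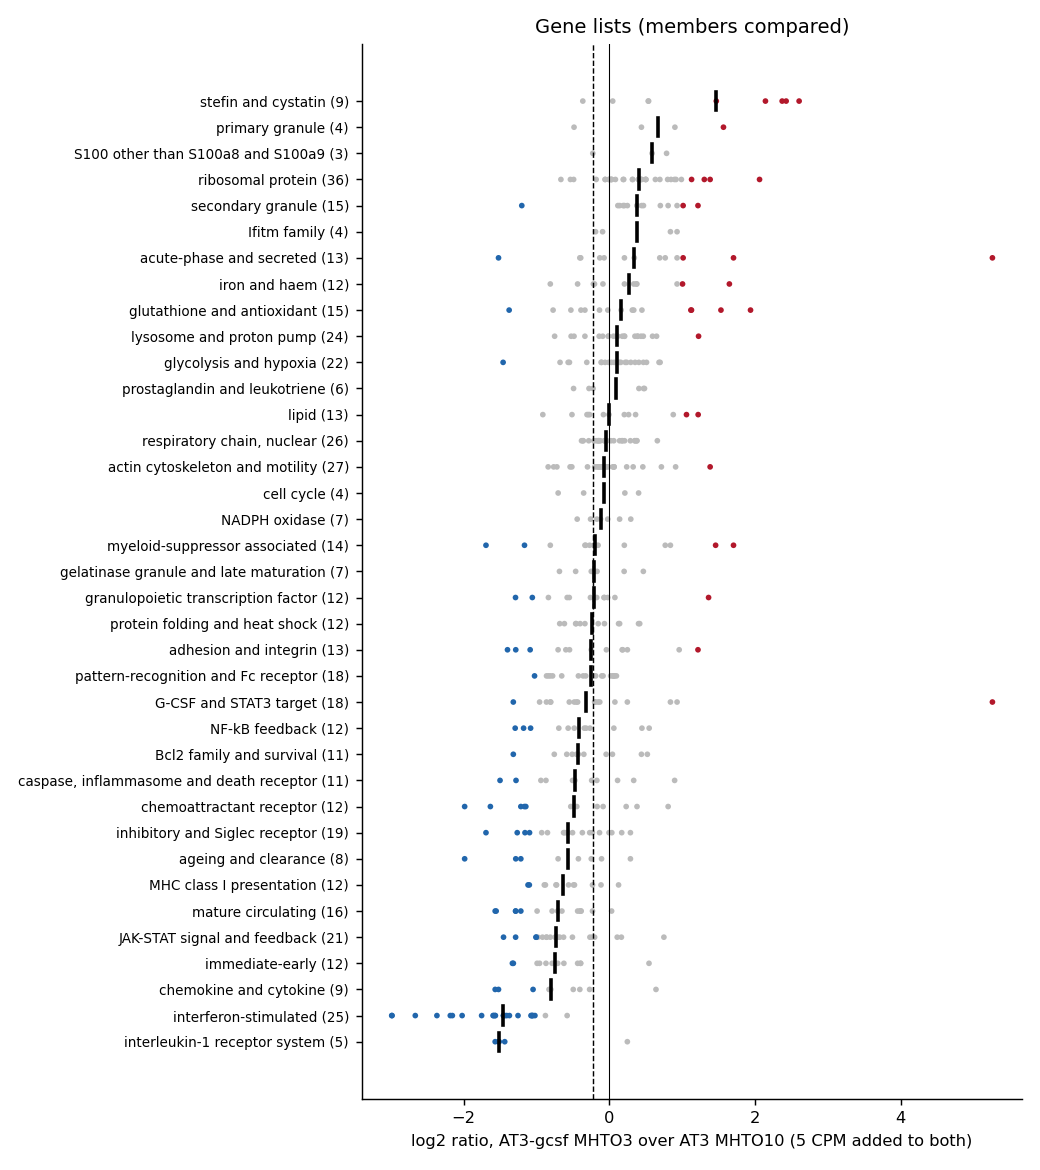
Log2 ratio of AT3-gcsf MHTO3 over AT3 MHTO10 for each gene compared (points, red at 1 or more, blue at -1 or less, grey between) in 37 gene lists, with the number compared in brackets, a bar at each list's median and a dashed line at the median of all genes (-0.22). The stefin list has the highest median (1.47), and the interferon-stimulated (-1.45) and interleukin-1 (-1.51) lists the lowest.

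Interferon-stimulated genes were the group with the most lower calls. Of 25 members compared, 23 were at least 2-fold lower and 0 higher in AT3-gcsf MHTO3, with a median log2 ratio of -1.45, and 19 lay lower in all 3 AT3-gcsf than in all 3 AT3 populations. Of all genes compared, 7.5% were lower and 9.92% lay lower in all 3 AT3-gcsf populations. Ifit3, which restrains viral RNA as part of a protein complex, was at 7.69 CPM in AT3-gcsf MHTO3 (6.57 to 8.95), against 95.4 CPM in AT3 MHTO10 (89.4 to 102), a log2 ratio of -2.98. The other AT3-gcsf populations were at 4.77 and 6.16 CPM and the other AT3 populations at 51.6 and 32.9 CPM, without overlap. Its near copy Ifit3b stood at a log2 ratio of -2.99, and how reads were divided between the pair is uncertain. Rsad2 (viperin, an antiviral nucleotide-modifying enzyme) was at 14.9 CPM in AT3-gcsf MHTO3, against 121 CPM in AT3 MHTO10 (log2 ratio -2.66), with 7.95 and 20.4 CPM in the other AT3-gcsf and 68.6 and 96.2 CPM in the other AT3 populations. Ifit1, which binds viral RNA ends, was at 27.1 CPM in AT3-gcsf MHTO3 and 161 CPM in AT3 MHTO10 (log2 ratio -2.37), and Cmpk2, a nucleotide kinase next to Rsad2, at 4.65 CPM in AT3-gcsf MHTO3 and 38.0 CPM in AT3 MHTO10 (log2 ratio -2.16). Ifi27l2a, also induced by interferon but outside the list, was the most abundant of the 12 lowest genes, at 148 CPM in AT3-gcsf MHTO3, against 1233 CPM in AT3 MHTO10 (log2 ratio -3.01). The ubiquitin-like Isg15 was at 76.7 CPM in AT3-gcsf MHTO3 and 327 CPM in AT3 MHTO10 (log2 ratio -2.02), and here the conditions overlapped, because AT3-gcsf MHTO5 (171 CPM) lay above AT3 MHTO7 (149.6 CPM). Among the other genes of the 12 lowest, the Schlafen proteins Slfn5 (-2.18) and Slfn8 (-1.99) restrain growth and viruses, H2-Q10 (-2.06) is a secreted class I molecule, and cyclin D2, Ccnd2 (4.24 CPM in AT3-gcsf MHTO3 and 31.9 CPM in AT3 MHTO10), drives entry into the cell cycle. The 2 list members not called were the Schlafen genes Slfn4 (-0.88) and Slfn1 (-0.58). Irf7, a transcription factor that amplifies the interferon response, was lower too, at a log2 ratio of -1.25. Summed over the list, AT3-gcsf populations held 2007, 1461 and 1729 CPM (MHTO3, MHTO4, MHTO5), against 5261, 2412 and 3409.9 CPM in AT3 MHTO10, MHTO7 and MHTO8. Naive MHTO3, MHTO4 and MHTO5 held 4768, 1459 and 4001 CPM, so AT3 MHTO10 had the highest sum of all 9 populations and AT3-gcsf MHTO3 ranked above naive MHTO4 and the other AT3-gcsf populations. Thinned to 2000 UMIs, the median AT3-gcsf MHTO3 cell had 3 UMIs of the list and the median AT3 MHTO10 cell 9. The list's median ran over -1.62 to -1.17 across the alternative settings, and Ifit3, Rsad2 and Ifit1 were lower in each of the 4 depth bands (Rsad2 at -2.03, -1.77, -2.70 and -2.38).

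The windows of promoter sequence of Ifit3, Ifit1, Rsad2 and Isg15, of Saa3 and of Cmpk2, follow. They were chosen after their matches were seen, 4 lower interferon genes and Saa3 with a match and Cmpk2, a lower interferon gene, with none. Each runs 5′ to 3′ on the gene's own strand over 300 bases, 250 before and 50 after the start, from RefSeq (GRCm38.p6). Capitals mark matches on either strand to a pair of GAAA half-sites 2 bases apart, the core of the interferon-stimulated response element, and overlapping matches are merged.
Ifit3 (chr19:34583279-34583578, plus strand): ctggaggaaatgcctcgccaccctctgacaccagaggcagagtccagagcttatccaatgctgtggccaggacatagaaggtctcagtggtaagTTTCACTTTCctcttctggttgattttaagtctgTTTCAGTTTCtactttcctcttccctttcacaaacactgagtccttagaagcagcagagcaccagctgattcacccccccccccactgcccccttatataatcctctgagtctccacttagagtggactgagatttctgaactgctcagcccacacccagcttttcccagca
Ifit1 (chr19:34640639-34640938, plus strand): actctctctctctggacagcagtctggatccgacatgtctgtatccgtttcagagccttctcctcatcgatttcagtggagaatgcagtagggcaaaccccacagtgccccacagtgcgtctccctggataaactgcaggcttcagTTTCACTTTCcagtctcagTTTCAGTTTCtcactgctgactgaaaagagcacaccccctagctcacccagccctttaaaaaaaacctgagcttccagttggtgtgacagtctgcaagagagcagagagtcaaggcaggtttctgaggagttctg
Rsad2 (chr12:26456403-26456702, minus strand): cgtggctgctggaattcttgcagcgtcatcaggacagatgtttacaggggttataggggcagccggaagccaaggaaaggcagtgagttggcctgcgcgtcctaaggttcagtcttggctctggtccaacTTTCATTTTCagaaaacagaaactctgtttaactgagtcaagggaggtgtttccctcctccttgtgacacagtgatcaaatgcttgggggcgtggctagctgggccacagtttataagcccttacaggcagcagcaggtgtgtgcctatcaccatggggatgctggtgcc
Isg15 (chr4:156200769-156201068, minus strand): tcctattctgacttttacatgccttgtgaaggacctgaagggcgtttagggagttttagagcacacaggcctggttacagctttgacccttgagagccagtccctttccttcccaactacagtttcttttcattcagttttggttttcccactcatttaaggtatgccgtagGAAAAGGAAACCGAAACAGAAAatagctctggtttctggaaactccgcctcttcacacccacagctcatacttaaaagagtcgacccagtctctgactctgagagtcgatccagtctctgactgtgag
Cmpk2 (chr12:26468965-26469264, plus strand): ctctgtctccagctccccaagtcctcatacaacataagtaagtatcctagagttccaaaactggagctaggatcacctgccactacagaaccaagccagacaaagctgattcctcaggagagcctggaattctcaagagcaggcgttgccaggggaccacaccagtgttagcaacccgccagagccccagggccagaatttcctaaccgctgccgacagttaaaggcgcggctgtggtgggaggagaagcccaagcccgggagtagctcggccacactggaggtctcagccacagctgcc
Saa3 (chr7:46715627-46715926, minus strand): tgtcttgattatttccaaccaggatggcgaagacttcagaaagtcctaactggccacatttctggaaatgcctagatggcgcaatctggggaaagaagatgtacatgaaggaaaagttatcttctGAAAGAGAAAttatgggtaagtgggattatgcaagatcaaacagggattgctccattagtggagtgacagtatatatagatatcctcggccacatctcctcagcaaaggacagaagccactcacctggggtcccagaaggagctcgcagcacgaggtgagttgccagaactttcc
Ifit3 and Ifit1 held 2 matches each, Rsad2 1 and Isg15 3 that overlap. Saa3, the gene with the highest ratio, also held 1. Of the lower interferon-list genes with a window, 10 of 18 (55.6%) held the motif. Among all compared list genes with a window, called or not, 10 of 20 (50%) did. The list was written as interferon-stimulated genes, so these shares describe the list and do not bear on the calls. The motif occurred in 3.44% of all 32851 windows, in 3.99% of all 27025 genes with a window and in 5.15% of the compared genes with one (3066 of 3801 matched by symbol). Among the other lower genes 8.49% of 212 held it, and among the higher genes 5.08% of 59. The STAT-type letters TTCNNNGAA occurred in 8.47% of higher, 10.9% of lower and 8.09% of compared genes, and in 8.30% of all windows. A match describes letters in this window only.

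Several receptors through which neutrophils are released and guided were lower in AT3-gcsf MHTO3, by less among cells of 3000 to 8000 UMIs. Csf3r, the G-CSF receptor, was at 887 CPM in AT3-gcsf MHTO3 (875 to 899.9), against 2173 CPM in AT3 MHTO10 (2144 to 2202), a log2 ratio of -1.29. The conditions overlapped, with 807 and 652 CPM in the other AT3-gcsf and 565 and 1088 CPM in the other AT3 populations. Cxcr2, the receptor for neutrophil-attracting chemokines, was at 676 CPM in AT3-gcsf MHTO3, against 1577 CPM in AT3 MHTO10 (log2 ratio -1.22), with 653 and 459 CPM in the other AT3-gcsf and 684 and 661 CPM in the other AT3 populations. Cxcr4 was at 46.6 CPM in AT3-gcsf MHTO3, against 199 CPM in AT3 MHTO10 (log2 ratio -1.99), with 29.3 and 155 CPM in the other AT3-gcsf and 78.0 and 436 CPM in the other AT3 populations. For these 3 genes AT3 MHTO10 lay above AT3-gcsf MHTO3, but not every AT3 population lay above every AT3-gcsf one. Among 12 chemoattractant receptors 5 were lower, the others being Ccrl2 (-1.15), the complement receptor C5ar2 (-1.63) and the platelet-activating factor receptor Ptafr (-1.17), and 0 higher (median -0.49). Of all genes compared, 7.5% were lower and 2.1% higher. Of 13 adhesion genes 3 were lower, the integrin chains Itgal (-1.40) and Itga4 (-1.29) and the hyaluronan receptor Cd44 (-1.09). The 1 higher was Cd177, a neutrophil surface partner of proteinase 3 (1.22), and the median was -0.25. Cd177 overlapped between the conditions, because AT3 MHTO7 (694 CPM) lay above AT3-gcsf MHTO3, MHTO4 and MHTO5 (456, 445 and 393 CPM). Prr5l, a regulator of the kinase complex mTORC2, was at 67.0 CPM in AT3-gcsf MHTO3 and 184 CPM in AT3 MHTO10 (log2 ratio -1.39) and was the highest in AT3 MHTO10 of all 9 populations. AT3 MHTO10 was already known to be rich in Prr5l, so this rank is description only. In the mature circulating list 5 of 16 genes were lower and 0 higher (median -0.71), and in the ageing and clearance list 3 of 8 were lower, Cxcr4, Itga4 and Cxcr2. Among cells of 3000 to 8000 UMIs the ratios were -0.78 for Csf3r, -0.91 for Cxcr2, -0.96 for Cxcr4, -0.96 for Itgal, -0.49 for Itga4 and -0.96 for Prr5l, below 0 but short of 2-fold. Under TMM scaling Cxcr2 was short of 2-fold as well.

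Interleukin-1 and its partners were lower as well. Il1b, the inflammatory cytokine, was at 1104 CPM in AT3-gcsf MHTO3 (1091 to 1119), against 3284 CPM in AT3 MHTO10 (3249 to 3319.9), a log2 ratio of -1.57. Within each library the spread was wider than this difference, with 459 and 9607 CPM in AT3-gcsf MHTO4 and MHTO5 and 400.0 and 15120.5 CPM in AT3 MHTO7 and MHTO8. Its antagonist Il1rn was at 51.3 CPM in AT3-gcsf MHTO3 and 157 CPM in AT3 MHTO10 (log2 ratio -1.52), the receptor chain Il1rap at 85.7 CPM in AT3-gcsf MHTO3 and 254 CPM in AT3 MHTO10 (log2 ratio -1.51) and the interleukin-18 receptor chain Il18rap at -1.44 on the log2 scale. The decoy receptor Il1r2 (0.25) was not called, so 4 of 5 members were lower (median -1.51, -1.59 to -0.29 over the alternatives), where 7.5% of all genes were. The inflammasome sensor Nlrp3, which leads to cleavage of the Il1b product, was at 35.4 CPM in AT3-gcsf MHTO3 and 109 CPM in AT3 MHTO10 (log2 ratio -1.50). In the chemokine and cytokine list 3 of 9 were lower, Il1b, Il1rn and the chemokine Cxcl2 (75.9 CPM in AT3-gcsf MHTO3 and 162 CPM in AT3 MHTO10, log2 ratio -1.05), with a median of -0.80. Of 12 NF-kB feedback genes 3 were lower, Nfkbiz (-1.29), Nfkbid (-1.18) and Tnfaip2 (-1.08) (median -0.41). The mRNA-destabilising Zfp36 (-1.33) and Fosl2 (-1.32) were the 2 of 12 immediate-early genes that were lower (median -0.75). At 3000 to 8000 UMIs the ratio was -0.90 for Il1b, -0.97 for Nlrp3, -0.76 for Cxcl2, -0.99 for Nfkbiz and -0.77 for Zfp36, none past 2-fold, and -1.11 for Il1rn and -1.04 for Il1rap, both past it. Under TMM scaling Cxcl2, Nfkbid and Tnfaip2 were short of 2-fold.

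**Figure D4:**
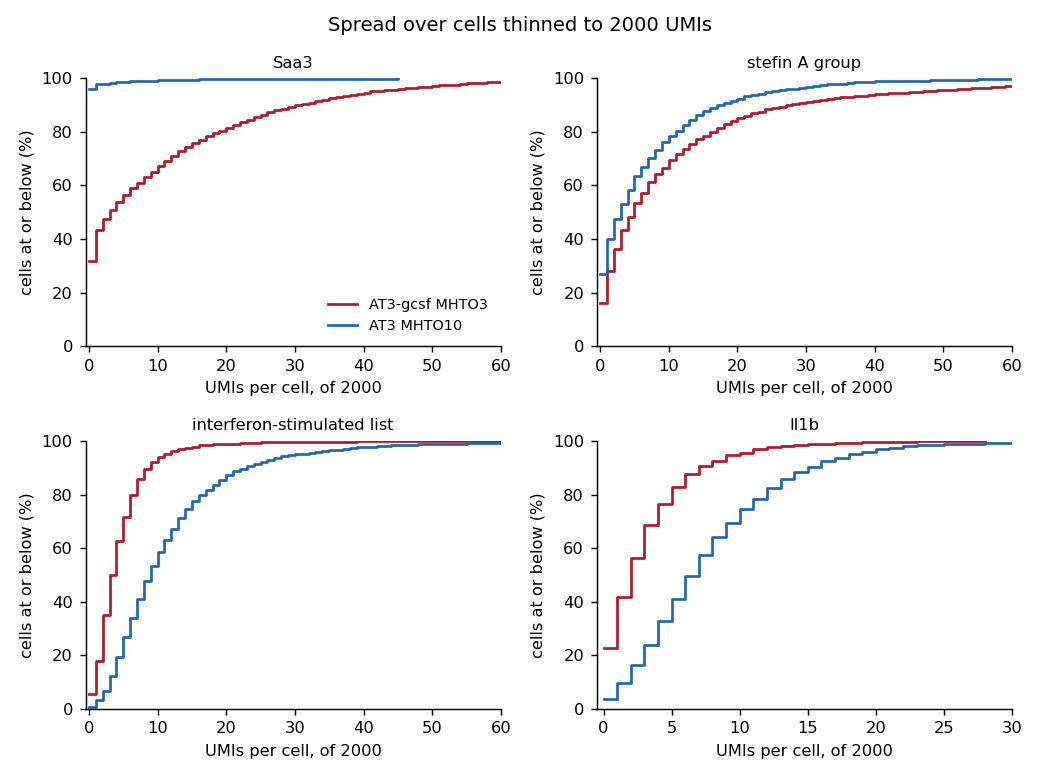
Share of cells (%) at or below each number of UMIs in cells thinned to 2000 UMIs, for Saa3, the stefin A group, the interferon-stimulated list and Il1b, in AT3-gcsf MHTO3 (red) and AT3 MHTO10 (blue). The Saa3 curves part at 0 UMIs, where 68.3% of AT3-gcsf MHTO3 and 4.10% of AT3 MHTO10 cells have at least 1, and the interferon curves are shifted over their whole length, with medians of 3 and 9 UMIs.

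For G-CSF signalling, Csf3 itself had 0 UMIs in AT3-gcsf MHTO3 cells, which allows up to 0.138 CPM (3 counts), and 0.698 CPM (7 UMIs) in AT3 MHTO10, and Socs3, the feedback inhibitor of the receptor, was at 604 CPM in AT3-gcsf MHTO3 and 696 CPM in AT3 MHTO10 (log2 ratio -0.20). Of 18 G-CSF and STAT3 targets compared, 1 was higher, Saa3, and 1 lower, the survival kinase Pim1 (209 CPM in AT3-gcsf MHTO3 and 529 CPM in AT3 MHTO10, log2 ratio -1.32). The list's median was -0.32. In the JAK-STAT list 4 of 21 were lower, among them Csf3r, the shared cytokine receptor chain Csf2rb (-1.01) and the interleukin-17 receptor chain Il17ra (155 CPM in AT3-gcsf MHTO3 and 316 CPM in AT3 MHTO10, just past 2-fold), and the median was -0.74. Of all genes compared, 7.5% were lower. Class I presentation genes had 2 of 12 lower, the light chain B2m (664 CPM in AT3-gcsf MHTO3 and 1428 CPM in AT3 MHTO10, log2 ratio -1.10) and H2-Q4 (11.7 CPM in AT3-gcsf MHTO3 and 31.3 CPM in AT3 MHTO10, log2 ratio -1.12), with a median of -0.64. Csf2rb, B2m and H2-Q4 were not past 2-fold under TMM scaling or at 3000 to 8000 UMIs, and H2-Q genes are near copies of each other. Of 19 inhibitory receptors 4 were lower, Cd274, Cd101, Lilr4b (-1.27) and Cd300ld (-1.16, not called under TMM scaling), with a median of -0.56. Id2, an inhibitor of basic helix-loop-helix factors, was the 1 of 12 granulopoietic regulators that was higher, at 223 CPM in AT3-gcsf MHTO3 and 83.7 CPM in AT3 MHTO10 (log2 ratio 1.36), and it kept a ratio of 1.96 at 3000 to 8000 UMIs. Foxo3 (-1.29) and Mxd1 (-1.06) were lower, Mxd1 not under TMM scaling.

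The 3 granule lists held 3 higher calls and 1 lower call, over 4 primary, 15 secondary and 7 gelatinase granule genes compared, against 2.1% higher and 7.5% lower of all genes. Ctsc, the protease that activates the serine proteases of primary granules, was at 94.8 CPM in AT3-gcsf MHTO3, against 28.7 CPM in AT3 MHTO10 (log2 ratio 1.57), with 105 and 109.8 CPM in the other AT3-gcsf and 37.5 and 51.6 CPM in the other AT3 populations. It was 1 of 4 primary granule genes compared. Elane, neutrophil elastase, was at 0.276 CPM in AT3-gcsf MHTO3 and 2.59 CPM in AT3 MHTO10, too low to compare. In the secondary granule list 2 of 15 were higher, Cd177 (456 CPM in AT3-gcsf MHTO3 and 193 CPM in AT3 MHTO10, log2 ratio 1.22) and Chil3, and 1 lower, Camp, the cathelicidin precursor (499 CPM in AT3-gcsf MHTO3 and 1156 CPM in AT3 MHTO10, log2 ratio -1.20), with a median of 0.38. Camp was short of 2-fold under TMM scaling and without cells holding markers of another type. Cd177 turned round with depth, at ratios of 1.17, 0.27, -0.24 and -0.14 from the shallowest to the deepest band, and Chil3 stood at 0.41, 0.38, 1.33 and -0.65. Lactoferrin, Ltf, was at 818 CPM in AT3-gcsf MHTO3 and 629 CPM in AT3 MHTO10 (log2 ratio 0.38) and Ngp at 2866 CPM in AT3-gcsf MHTO3 and 2516 CPM in AT3 MHTO10 (log2 ratio 0.19). The surface marker Ly6g was at 698 CPM in AT3-gcsf MHTO3 and 398 CPM in AT3 MHTO10 (log2 ratio 0.80), but its ratio was 0.90, -0.49, -0.49 and -0.02 from the shallowest to the deepest of 4 depth bands (under 3000, to 5000, to 8000 and from 8000 UMIs). The proliferation marker Mki67 was at 0.645 CPM in AT3-gcsf MHTO3 and 2.29 CPM in AT3 MHTO10. The gelatinase granule list had none of 7 called (median -0.20).

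These levels varied with the depth of the cell, which was split into 4 bands after the data were seen. Cells of at least 8000 UMIs made up 37.2% of AT3-gcsf MHTO3 and 5.76% of AT3 MHTO10 cells, and cells under 3000 UMIs made up 7.5% of AT3-gcsf MHTO3 and 41.4% of AT3 MHTO10 cells. From the shallowest to the deepest band, Ngp stood at 241, 170.1, 178 and 4737 CPM in AT3-gcsf MHTO3, against 459, 357, 409 and 12769 CPM in AT3 MHTO10. In both populations the deepest cells held most Ngp, and in each band AT3-gcsf MHTO3 held less, although the pooled ratio was 0.19. Ltf did likewise, with ratios of -1.24, -1.21, -1.60 and -1.24 in the bands and 0.38 over all cells. For Camp the band ratios were -3.22, -3.28, -2.52 and -2.79, larger in size than the -1.20 over all cells. A Camp UMI occurred in 8.53% of thinned AT3-gcsf MHTO3 and 34.3% of thinned AT3 MHTO10 cells, the second no higher than the background of 43.5% in 23 lymphocyte-marked AT3 cells (23.2 to 65.5). Such a background is not given here for Camp in AT3-gcsf or for Ltf and Ngp. The part of free RNA in the band ratios of these genes was not tested. In all, 1.75% of AT3-gcsf MHTO3 and 1.73% of AT3 MHTO10 cells had at least 5 Camp UMIs. In the deepest band Camp was at 833 CPM in AT3-gcsf MHTO3, against 5788 CPM in AT3 MHTO10 (1060 and 144 cells in the same order). Csf3r ran the other way along depth, at 1884, 1476, 1107 and 621 CPM in AT3-gcsf MHTO3, against 3396, 2435, 1594 and 590.4 CPM in AT3 MHTO10, so that the populations differed among shallow cells (-0.85) and hardly among the deepest (0.07). In the deepest band Il1rap (0.02), Nlrp12 (0.02) and Fgl2 (0.14), lower over all cells, also stood at or above 0, and Lcn2 (-0.24) below it. Socs3 lay above 0 in all 4 bands (0.09 to 0.73), against -0.20 over all cells. Saa3 differed in every band (5.57, 5.65, 6.21 and 5.36). Of the 73 genes called among those named here, 34 were not called among cells of 3000 to 8000 UMIs (1579 AT3-gcsf MHTO3 cells with a median of 5205 UMIs and 1319 AT3 MHTO10 cells with a median of 4025, so depth was not matched within the band). There the median of the genes compared over all cells stood at 0.03, 122 genes were higher and 95 lower, and 55 of the higher and 85 of the lower were the same genes as over all cells. Besides those given above, Fgl2, Nfkbid, Tnfaip2, Mxd1, Nlrp12, Tlr6, Cd300ld, Lipg, Apoc2, Ndrg1, Blvrb and Capg were among the 34. Thinning cells to 2000 UMIs left all but Lat2, Blvrb and Csf2rb of the 73 called. It gave each thinned cell equal weight and left out 51 AT3-gcsf MHTO3 and 181 AT3 MHTO10 cells under 2000 UMIs. The mix of cells was therefore not quite that of the sums over all cells.

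**Figure D5:**
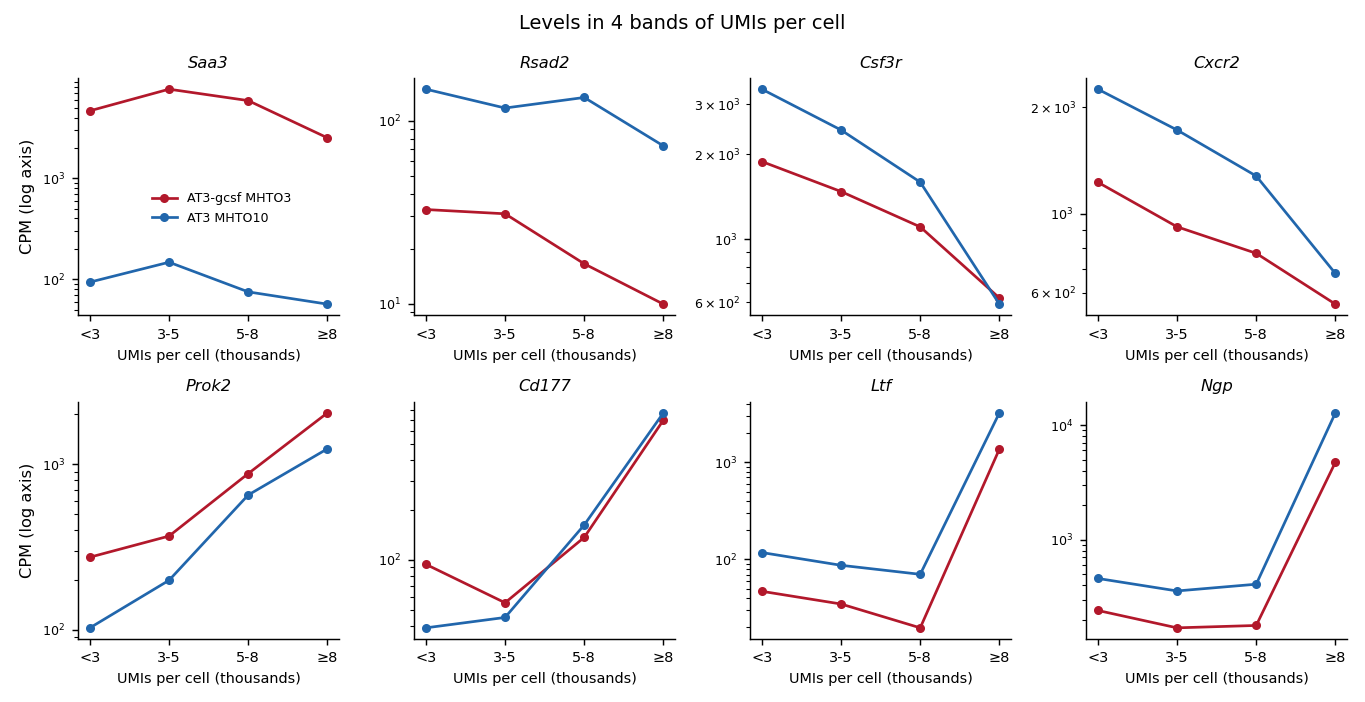
Levels (CPM, log axes of differing range) of 8 genes in cells of 4 depth bands (UMIs per cell) in AT3-gcsf MHTO3 (red) and AT3 MHTO10 (blue). Saa3 and Rsad2 keep the populations apart in every band, Ltf and Ngp are lower in AT3-gcsf MHTO3 in every band, and the Csf3r curves meet among the deepest cells.

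Some genes of translation were among the higher ones. Of 36 ribosomal protein and elongation genes, 4 were at least 2-fold higher, 29 above 0 and 0 lower, with a median of 0.40, and 21 lay above in all 3 AT3-gcsf populations. Of all genes compared, 2.1% were higher, 7.5% lower, 31.6% above 0 and 12.4% above in all 3 AT3-gcsf populations. Rpsa, a small-subunit protein that also binds laminin, was at 858 CPM in AT3-gcsf MHTO3, against 202 CPM in AT3 MHTO10 (log2 ratio 2.06), with 976 and 831 CPM in the other AT3-gcsf and 307 and 229 CPM in the other AT3 populations. The stalk protein Rplp0 was at 1320.3 CPM in AT3-gcsf MHTO3 and 503 CPM in AT3 MHTO10 (log2 ratio 1.38) and Rps19 at 362 CPM in AT3-gcsf MHTO3 and 144 CPM in AT3 MHTO10 (log2 ratio 1.30). Ribosomal genes have many processed copies, and how their reads were assigned is uncertain. Mitochondrially encoded genes took a median of 1.48% of a cell's UMIs in AT3-gcsf MHTO3, against 0.576% in AT3 MHTO10. Nuclear genes of the respiratory chain had none of 26 called (median -0.04). Of 15 antioxidant genes 4 were higher, the glutathione-cleaving Ggt1 (185 CPM in AT3-gcsf MHTO3 and 44.6 CPM in AT3 MHTO10, log2 ratio 1.94), peroxiredoxin Prdx1 (31.9 CPM in AT3-gcsf MHTO3 and 7.78 CPM in AT3 MHTO10, log2 ratio 1.53), the glutathione synthesis subunit Gclm (1.13) and metallothionein Mt1 (1.12), and 1 was lower, the cystine transporter Slc7a11 (20.4 CPM in AT3-gcsf MHTO3 and 61.0 CPM in AT3 MHTO10, log2 ratio -1.38). Ggt1 stood at 0.76 among cells of 3000 to 8000 UMIs. In the iron and haem list Trf and biliverdin reductase Blvrb (30.8 CPM in AT3-gcsf MHTO3 and 12.9 CPM in AT3 MHTO10) were the 2 of 12 higher, in the lipid list the lipase Lipg (1.22) and apolipoprotein Apoc2 (1.06) the 2 of 13. Apoe was at 104 CPM in AT3-gcsf MHTO3 and 86.1 CPM in AT3 MHTO10 (log2 ratio 0.26). Cathepsin L, Ctsl (1.22), was the 1 of 24 lysosomal genes and the actin-capping Capg (1.38) the 1 of 27 cytoskeletal genes that was higher. Ndrg1 (9.63 CPM in AT3-gcsf MHTO3 and 35.2 CPM in AT3 MHTO10, log2 ratio -1.46) was the 1 of 22 glycolysis and hypoxia genes that was lower.

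The remaining lists held few calls. None was called among 7 NADPH oxidase genes (median -0.12), 6 prostaglandin and leukotriene genes (0.09), 12 protein-folding genes (-0.25) and 4 cell cycle genes (-0.07). Of 11 survival genes 1 was lower, Pim1 (median -0.43), of 11 caspase and inflammasome genes, a list without Casp6, 2, Nlrp3 and Nlrp12 (-0.47), and of 18 pattern-recognition and Fc receptors 1, Tlr6 (-0.26), which was not called under TMM scaling.

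The direction of a gene went with the length of its transcript. Higher genes had a median length of 2.04 kb, lower genes 4.48 kb and all genes compared 3.22 kb. Over 5 equal groups of genes ordered by length, the median log2 ratio stood at 0.05, -0.07, -0.20, -0.37 and -0.59 in order of length, and at 0.28, 0.16, 0.03, -0.10 and -0.25 among cells of 3000 to 8000 UMIs. The same order held inside each population between cells of at least 3000 UMIs and shallower ones, with -0.51 in the shortest and -0.70 in the longest group for AT3-gcsf MHTO3 and -0.35 and -0.64 for AT3 MHTO10. The part of transcript length in the calls was not tested.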

How the data were processed

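Per the file headers and labels, each condition had a 10x version 3 gene matrix of UMI counts for 32285 genes and a hashtag count matrix, as the authors deposited them (Cell Ranger 4.0.0, bcl2fastq 2.20.0.422 and mm10, per the submitters' processing notes). The hashtag counter, its UMI handling and the number of mice were not stated in the sources used here. Barcodes were joined to hashtags and cells kept as described above. Only hashtag doublets were removed, and no doublet caller was run. Counts were summed per population and scaled to CPM. A gene was compared at 20 CPM in the higher sum and called at a log2 ratio of 1 in size after adding 5 CPM, with 95% exact Poisson or Clopper-Pearson intervals for counting error only and no test, since there was 1 library per condition. Cells were thinned to 2000 UMIs (seed 1). The call was checked only on simulated Poisson counts with known changes. These hold no mix of depths, lane effect or spread between mice, so the check does not bear on them. Named genes were the 12 highest, the 12 lowest, the 3 largest in each of 37 lists and a fixed set, 126 in all; Ccrl2, Cd44, Cd101, Cst3, Cstb, Gclm, Ighm, Il17ra, Il18rap, Il1r2, Irf7, Jaml, Ly6c2, Mt1, Ms4a1, Ptafr, Scgb1a1, Slfn1, Slfn4, Stfa1 and Stfa3 were chosen after their values were seen. The populations and lists were chosen with earlier results of these data known. Of 16 alternatives 15 were planned. The one without barcodes called in more than 1 library, the depth bands, the length trend by depth and the lymphocyte-marked cells (under 10% S100) were added after the data were seen. Python 3.11.15 with numpy 2.4.6, scipy 1.17.1, pandas 2.3.3 and matplotlib 3.10.9 was used, with R 4.3.3 and edgeR 4.0.16 for TMM factors. Some members of the lists and markers are counted but not reported by name here.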

Additional observations from a re-analysis of the deposited data

How the results depend on the processing

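Across 16 alternatives no called gene among the 126 named changed direction, but the counts of calls moved. Higher genes numbered 138 under TMM scaling, 160 with totals without the 20 most abundant genes, 52 at a minimum of 50 CPM, 48 with 20 CPM added and 122 among cells of 3000 to 8000 UMIs, against 80. Lower genes numbered 136 under TMM scaling, 114 with 20 CPM added and 95 among cells of 3000 to 8000 UMIs, against 285. Higher genes made up 21.9% of calls in all, 50.4% under TMM scaling, 39.7% without the 20 most abundant genes and 56.2% at 3000 to 8000 UMIs. A higher minimum or added constant leaves fewer low genes to be called; the cause of the other moves was not tested. The other 24 counts stayed within 1.5 times. Of 37 list medians, 14 changed sign under at least 1 alternative, among them the primary granule, gelatinase granule, Ifitm, NADPH oxidase, lipid, respiratory chain, actin and cell cycle lists, while the interferon-stimulated, interleukin-1, stefin and ribosomal medians kept theirs. Low counts limit the genes under about 20 CPM, and 1 library per condition limits all results. No paired analysis was possible because each condition had 1 library and the labels pair none of the populations across libraries.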

Other observations

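Naive populations give further levels for the genes above (naive MHTO3, MHTO4 and MHTO5 in this order, each a single library's population with no replicate). Wfdc17 and Ifitm1, short of 2-fold between the pair, and Prok2, called higher, were low in naive cells and intermediate in AT3 MHTO10. Wfdc17 held 26484 CPM in AT3-gcsf MHTO3, 15571 CPM in AT3 MHTO10 and 1326, 91.9 and 759.9 CPM in naive cells. Ifitm1 held 23334 CPM in AT3-gcsf MHTO3, 13059 CPM in AT3 MHTO10 and 1523, 178 and 1133 CPM in naive cells. Prok2 held 1481 CPM in AT3-gcsf MHTO3, 451 CPM in AT3 MHTO10 and 25.3, 32.1 and 6.70 CPM in naive cells. Trf did not take that order, at 491 CPM in AT3-gcsf MHTO3, 153 CPM in AT3 MHTO10 and 226, 70.3 and 389 CPM in naive cells.

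The interferon-induced Ifi27l2a stood at 148 CPM in AT3-gcsf MHTO3, 1233 CPM in AT3 MHTO10 and 1513, 310.2 and 1126 CPM in naive cells, and Rsad2 at 14.9 CPM in AT3-gcsf MHTO3, 121 CPM in AT3 MHTO10 and 259, 50.1 and 245 CPM in naive cells. For both genes AT3-gcsf MHTO3 lay below all 3 naive populations and AT3 MHTO10 within their range. Other interferon genes took another order. Ifit1 stood at 27.1 CPM in AT3-gcsf MHTO3, 161 CPM in AT3 MHTO10 and 104, 14.7 and 40.3 CPM in naive cells, and Isg15 at 76.7 CPM in AT3-gcsf MHTO3, 327 CPM in AT3 MHTO10 and 309, 60.7 and 1255 CPM in naive cells. For both, AT3-gcsf MHTO3 lay above naive MHTO4. Markers of early progenitors summed to 84.6 CPM in AT3-gcsf MHTO3 and 54.4 CPM in AT3 MHTO10, mostly Kit and Prtn3. The other markers were low and did not share this direction. Elane (0.276 CPM in AT3-gcsf MHTO3 and 2.59 CPM in AT3 MHTO10), Mpo (0.461 and 2.29 CPM), Ctsg, Ms4a3 and Mki67 were lower in AT3-gcsf MHTO3. Prss57 was level, and Cd34 and Sox4 were higher. Gm12840, a predicted gene counted only under the naming rule and singled out after its value was seen, stood at 5.48 CPM in AT3-gcsf MHTO3 and 125 CPM in AT3 MHTO10 (log2 ratio -3.63), the lowest ratio of all genes compared.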
